A study of Glycine max with 24 samples.

Results

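The comparison sets HiPro seed of more than 200 to 300 mg (stage 4) against HiPro seed of more than 100 to 200 mg (stage 3), the last step of seed fill that was sampled. It uses 6 of 24 arrays, 3 per stage, and 37657 of the 37763 probesets on the Soy GeneChip, because 106 array controls were left out. HiPro (HiProt in the labels, LD04-15154) is a soybean line that carries the high protein allele of wild soybean, Glycine soja, at linkage group I in a Glycine max background. Its near-isogenic partner LoPro (LoProt, LD04-15146) kept the Glycine max allele there. Plants of both lines were grown in growth chambers in inoculated and fertilized soil, and both lines were sampled at 4 seed sizes. Each replicate was seed pooled from 3 plants of 1 line, so a replicate is a pool and not a single plant. By the methods the 4 sizes of a replicate were picked at the same time from the same plants, so a stage is a size class of seed and not a date. The labels call the tissue seed with no further division, and the whole seed was ground.

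A soybean seed is made up mainly of 2 cotyledons, enclosed in a maternal seed coat through which sugars and amides from the phloem reach the embryo. During seed fill the cotyledon cells stop dividing, enlarge and store glycinin and beta-conglycinin in protein vacuoles and triacylglycerol in oil bodies. Toward the end of filling, late embryogenesis abundant (LEA) proteins begin to build up, the seed coat stops growing and the chloroplasts of the green embryo decline. In bulk seed, fewer cells of a type and less RNA per cell cannot be told apart.

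The measurement was the signal of each probeset, on a linear scale that the authors set to the same mean on every array; the median signal of the 6 arrays was 211. Changes are given as log2 of the stage 4 signal over the stage 3 signal within pools, with the standard error (SE) and an adjusted p. The SE and p-values came from limma, fitted on all 24 arrays with the plant pool as a block. The p-values were adjusted by Benjamini-Hochberg over 37657 probesets. An SE thus draws on the spread at all stages of both lines and not on that of the last step alone. A probeset was called at an adjusted p below 0.05 and a change of at least 1.5-fold, and rose and fell are used of called probesets alone.

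From stage 3 to stage 4, the largest decreases among probesets with a description and at least median signal included cell wall and lipid transfer proteins, a smaller set of transcripts rose, and the main storage proteins were not called in either direction. In all 485 probesets (1.29%) were called, 57 higher (0.151%) and 428 lower (1.14%) at stage 4. All 57 moved the same way in 3 of 3 pools and so did all 428. The 3 arrays of stage 3 and the 3 of stage 4 did not overlap for 55 of the 57 and 360 of the 428. Over all probesets the arrays did not overlap for 6.91% that were higher and 6.59% that were lower, and an unadjusted p below 0.05 was reached by 14.3%. With no fold threshold 598 probesets (1.59%) had an adjusted p below 0.05. The median log2 change was 0.01 over all probesets, 0.99 over those called higher and -1.13 over those called lower. Of the decreases 270 were at least 2-fold and 78 at least 4-fold, against 27 and 6 of the increases. The called decreases had a median signal of 455.1 at stage 3 and the called increases one of 862.9 at stage 4.

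The number of calls depended most on 1 array among the 6. Without the HiPro stage 3 array of replicate 3, 97 probesets were called, 12 higher and 85 lower, against 210 to 456 without any other single array. None of the 57 increases and 79 of the 428 decreases were still called. All 485 kept the sign of their change, but each had moved one way in every pool, so a turned sign was hardly possible. The medians were 0.88 and -1.04 in place of 0.99 and -1.13. Without the whole replicate 3 pool of HiPro, 85 of the decreases and none of the increases were still called. Without the pool term 188 decreases and 5 increases were called, all among those above. Results are therefore given with and without that array.

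The stage 3 arrays were also placed between stages 2 and 4 on the probesets that LoPro called at the last step. On the 111 that LoPro called lower, the HiPro stage 3 arrays of replicates 1 to 3 had a median log2 signal of 0, -0.23 and 0.23 from the stage 3 mean, those of stage 2 of 0.77, 0.82 and 0.65, and those of stage 4 of -1.07, -1.26 and -1.15. On the 29 that LoPro called higher, the stage 3 arrays were at 0.17, 0.04 and -0.1, with stage 2 between -0.41 and -0.23 and stage 4 between 0.26 and 0.48. Replicate 3 was thus the stage 3 array nearest stage 2 on both sets, while replicates 2 and 1 lay as far or farther from the mean on the other side. The seed weights of the single arrays within the class of 100 to 200 mg are not given in the labels, and whether any array held smaller seed was not tested.

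**Figure D1:**
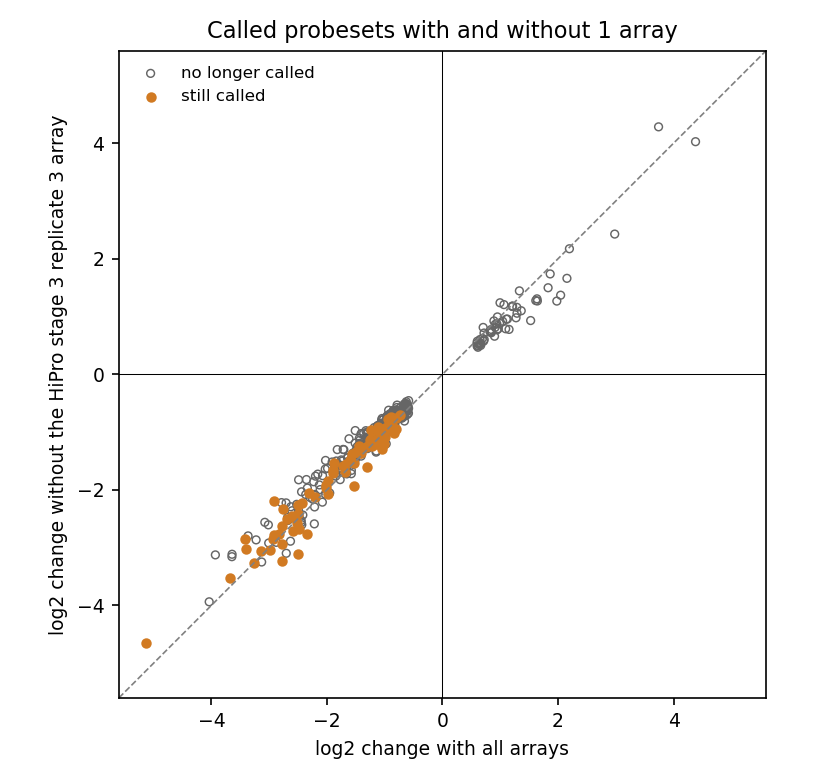
Log2 change from stage 3 to stage 4 in HiPro for the 485 called probesets, with all arrays (horizontal axis) and without the HiPro stage 3 array of replicate 3 (vertical axis); the dashed line marks equal values. Filled points are probesets still called: 79 decreases and none of the increases. Every point keeps its sign, which the same direction in every pool made nearly certain.

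Repetitive proline-rich proteins, structural proteins that become cross-linked into the wall, held the largest decrease. The probeset of LOC100786014 (Glyma13g27050), described as related to repetitive proline-rich cell wall protein 1, read 1428, 1206 and 3650 in replicates 1 to 3 at stage 3 and 42.96, 65.5 and 52.01 at stage 4. Every stage 4 array lay far below every stage 3 array, and the log2 change was -5.13 (SE 0.666, adjusted p = 0.00096), a 35-fold decrease. Without the stage 3 array of replicate 3 it was -4.65 (adjusted p = 0.016). The transcript had already changed by -2.58 from stage 2 to stage 3 (adjusted p = 0.023), and in LoPro the last step was -3.53 (adjusted p = 0.026).

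Other proline-rich probesets were brighter and were not called in the step before. A probeset described as repetitive proline-rich cell wall protein 1, with no gene symbol, read 7425, 6501 and 12150 at stage 3 and 494.9, 549 and 1041 at stage 4 (log2 change -3.67, SE 0.391, adjusted p = 0.00023). The brightest of 3 such probesets assigned to Glyma09g12200 read 13720, 12470 and 16100 at stage 3 and 1364, 1324 and 3041 at stage 4 (-2.99, SE 0.329, adjusted p = 0.00031). The other two of that gene changed by -2.59 and -1.97. For the 4 probesets stages 3 and 4 did not overlap, and all of them stayed called without the stage 3 array of replicate 3, at an adjusted p of 0.0045 each. From stage 2 to stage 3 the 3 probesets of Glyma09g12200 had changed by -0.44, 0.06 and 0.05, none of them called.

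PRP1 and PRP2, a pair of named members of the same family, moved in opposite directions. PRP1 read 6286, 5746 and 5519 at stage 3 and 845.9, 733.2 and 1864 at stage 4 (log2 change -2.48, SE 0.263, adjusted p = 0.00023). Its stages did not overlap, and without the replicate 3 array of stage 3 the change was -2.68 (adjusted p = 0.0033). PRP2 read 2407, 2105 and 910.5 at stage 3 and 6845, 3756 and 5457 at stage 4 on its first probeset (1.64, SE 0.309, adjusted p = 0.011) and rose on its second probeset too (1.36, SE 0.3, adjusted p = 0.027). Every stage 4 array lay above every stage 3 array, and the lowest stage 3 array was that of replicate 3. Without it the changes of PRP2 were 1.27 (adjusted p = 0.11) and 1.1 (adjusted p = 0.18), which no longer passed. The probesets of PRP1 and PRP2 are of types that the array design marks as able to bind related transcripts, so the level of each gene is uncertain.

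**Figure D2:**
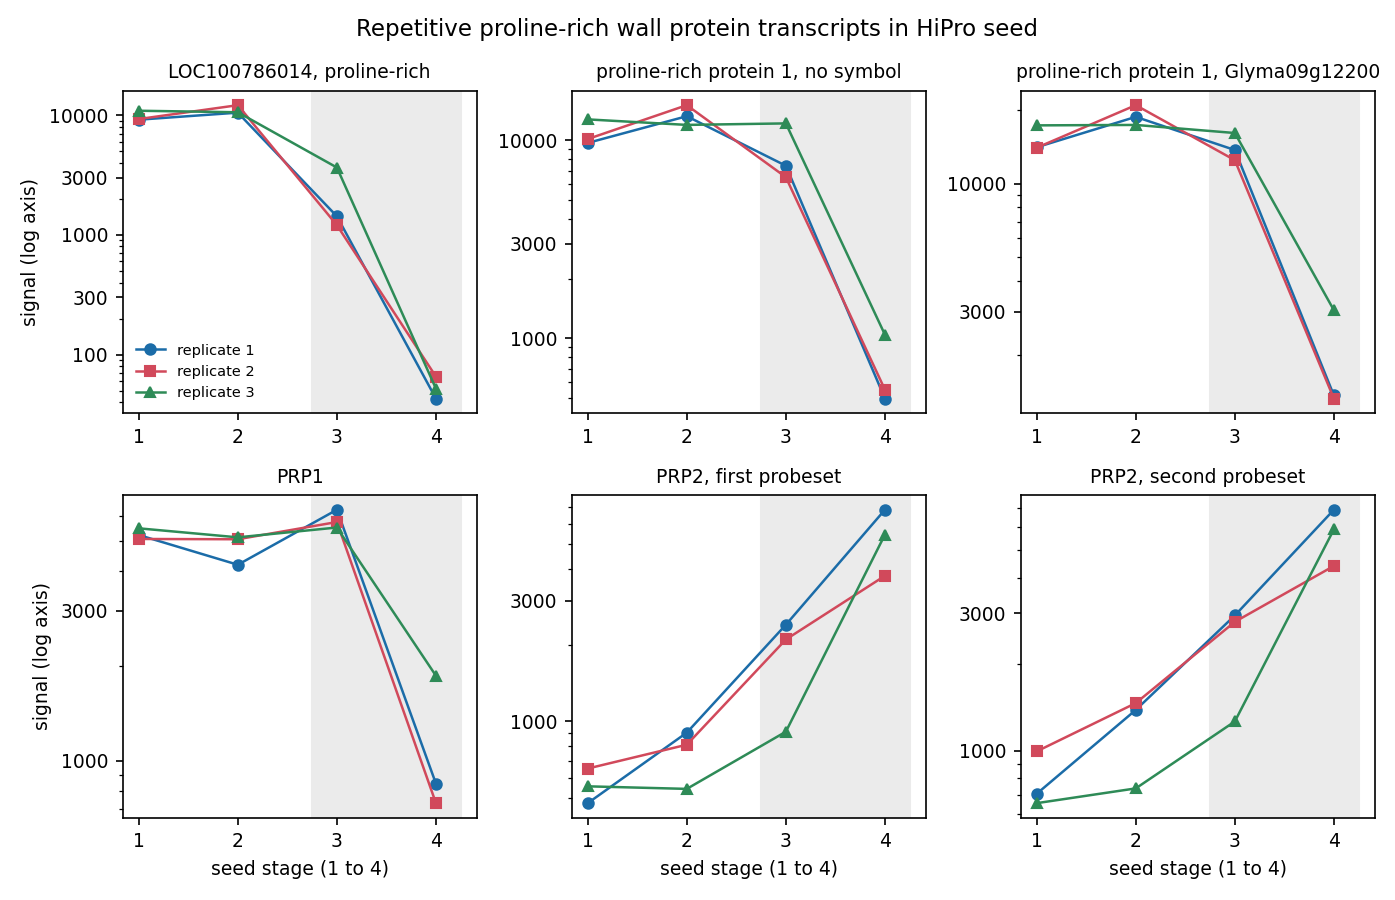
Signal (log axis) of 6 probesets of repetitive proline-rich wall proteins in HiPro seed at stages 1 to 4, one line per replicate pool; the grey band marks stages 3 and 4. Of the panels, 4 drop within the band, LOC100786014 to between 42.96 and 65.5, whereas both PRP2 panels climb, the first to between 3756 and 6845.

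The wider list of described cell wall proteins had 57 members, of which 14 fell, 1 rose (PRP2) and 42 were not called, with a median log2 change of -0.61. The descriptions come from additional files that list probesets the study had picked on these arrays, so this count and those of the other described lists are not independent evidence of their direction. Of the 14 decreases 7 were still called without the stage 3 array of replicate 3, and 10 without the pool term. A xyloglucan endotransglucosylase/hydrolase (Glyma16g26630), of an enzyme family that cuts and rejoins xyloglucan chains, read 42.09, 49.96 and 183.6 at stage 3 and 5.458, 2.605 and 13.95 at stage 4 (log2 change -3.64, SE 0.592, adjusted p = 0.0048). Its stages did not overlap, but its call was lost without the replicate 3 array (-3.12, adjusted p = 0.057).

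Further wall genes, chosen after their values were seen, also fell. Apart from GDP-mannose 3,5-epimerase, they were picked from called probesets alone, so uncalled members of their families are not given. Of 3 called pectinesterase probesets, whose enzymes remove methyl groups from pectin, LOC100816503 read 382.9, 378.6 and 554.1 at stage 3 and 79.02, 166.3 and 172 at stage 4 (-1.72, SE 0.221, adjusted p = 0.00096). It stayed called without the replicate 3 array (-1.58, adjusted p = 0.015), while the probesets of Glyma13g17570 (-1.72 with all arrays) and Glyma01g41820 (-1.51) did not (adjusted p = 0.083 and 0.15). GDP-mannose 3,5-epimerase, which supplies precursors of ascorbate and of wall polysaccharides, fell on 2 of 3 probesets (-1.06 and -1.09), both also without that array, and changed by -0.22 on the third (adjusted p = 0.44). The brighter of them read 3623, 2854 and 3297 at stage 3 and 1627, 1413 and 1633 at stage 4. Probesets of 2 glycine-rich proteins fell by 2.01 and 1.32 (Glyma15g07460) and by 1.23 and 0.89 (LOC100499725) on the log2 scale, and all 4 stayed called without that array. An LRX1 homolog of leucine-rich repeat extensin type (-1.51) and a cellulose synthase-like probeset (-1.17) fell with all arrays but not without it (adjusted p = 0.078 and 0.17).

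Lipid transfer proteins had the largest share of calls among lists of at least 9 members. They bind lipids outside the cell and are known for a role in building cuticles. Of 15 described members 7 fell and none rose, with a median log2 change of -0.95. The AKCS9-type member LOC100306409 read 1989, 607.5 and 1870 at stage 3 and 155.9, 92.03 and 302.5 at stage 4 (-3.01, SE 0.517, adjusted p = 0.0065). The lipid transfer protein 1 probeset of Glyma18g44680 read 322.2, 471.2 and 918.2 at stage 3 and 84.29, 67.51 and 134.1 at stage 4 (-2.5, SE 0.325, adjusted p = 0.00096). Both were free of overlap, and without the stage 3 array of replicate 3 the first was just outside the threshold (-2.92, adjusted p = 0.057) while the second stayed called (-2.41, adjusted p = 0.015). LOC100306062 (-2.12) and LOC100500178 (-1.15) fell with all arrays but not without it (adjusted p = 0.13 and 0.12). CYP86A24, of a P450 family that hydroxylates fatty acids for cutin in Arabidopsis, was chosen after its values were seen. It read 1045, 1027 and 1654 at stage 3 and 348.9, 288.6 and 547.3 at stage 4 (-1.67, SE 0.203, adjusted p = 0.00071) and stayed called without that array (-1.55, adjusted p = 0.01).

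Of the 10 largest decreases among probesets with a description, a stage 3 mean of at least the median signal and no overlap, 5 were neither proline-rich nor lipid transfer proteins. A probeset described as phi-1, a phosphate-responsive protein, read 1131, 857.6 and 1574 at stage 3 and 159.3, 105.5 and 209.6 at stage 4 (-2.92, SE 0.284, adjusted p = 0.00023). A strictosidine synthase family member (Glyma17g09110) read 1152, 1274 and 2156 at stage 3 and 151, 169.2 and 390.1 at stage 4 (-2.77, SE 0.426, adjusted p = 0.0036). Both were clear of overlap on every array and remained called without the replicate 3 array (-2.79, adjusted p = 0.0045, and -2.62, adjusted p = 0.04). The disease resistance-responsive family member LOC100305909 (-3.42), an O-methyltransferase (-2.91) and the GDSL lipase LOC100815273 (-2.76) fell too and kept their calls without it. The O-methyltransferase read 782.4 on that array against 101.9 and 119.4 on the other two stage 3 arrays.

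**Figure D3:**
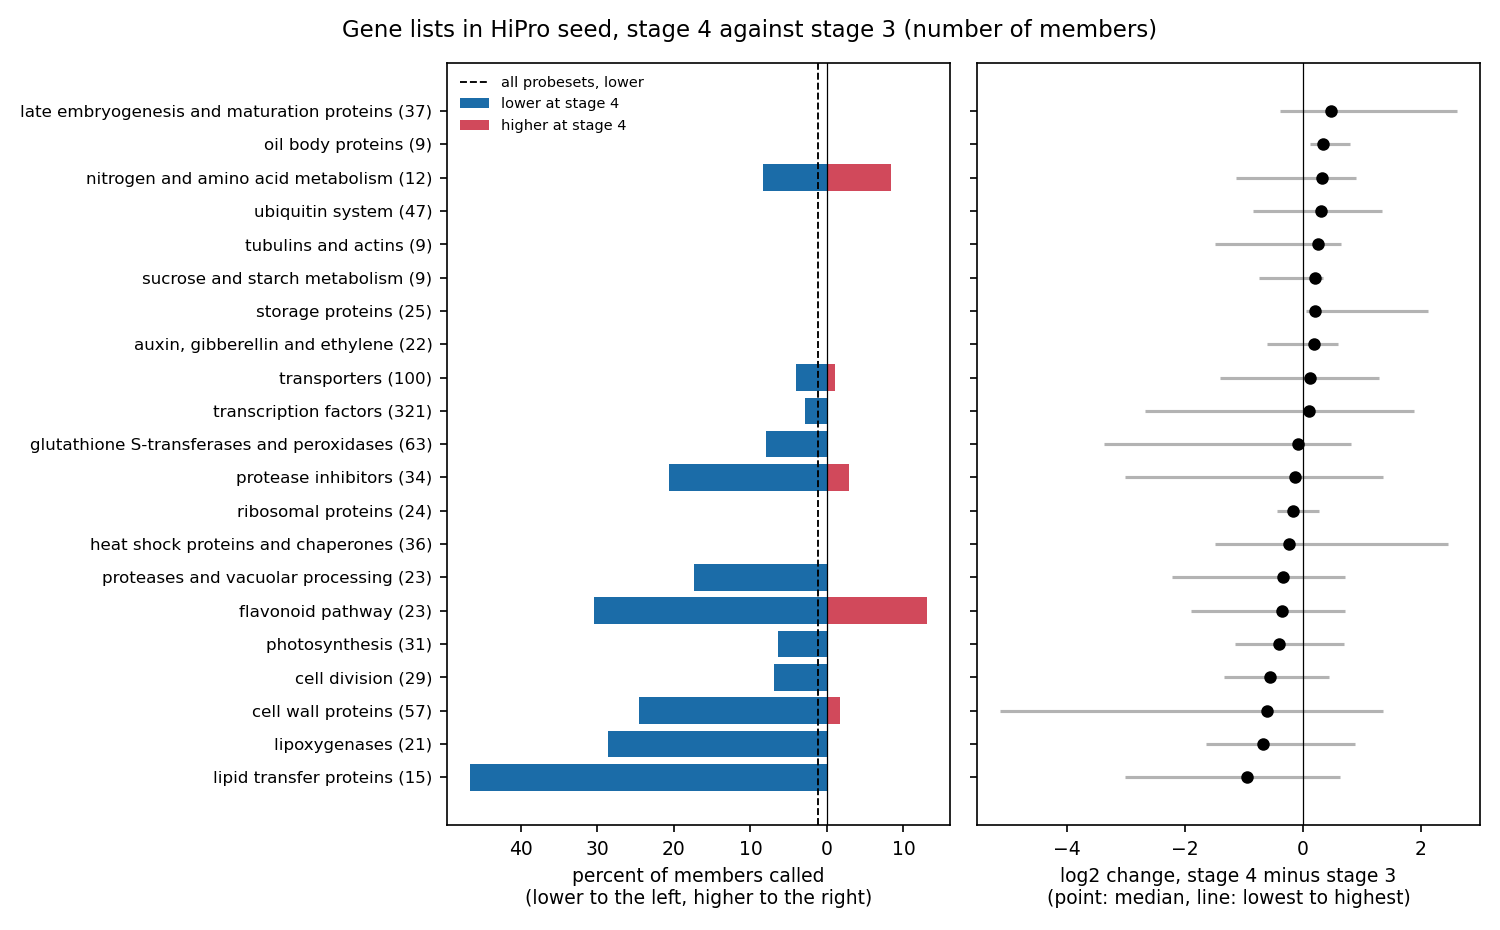
Described gene lists with at least 9 members in HiPro seed. Left, percent of members called lower (to the left) and higher (to the right), with a dashed line at the 1.14% of all probesets called lower; right, the median log2 change (point) and the lowest to highest member (line). Lipid transfer proteins (7 of 15 lower), the flavonoid pathway, lipoxygenases and cell wall proteins reach farthest left, and the storage, oil body and late embryogenesis lists have no calls.

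Flavonoid pathway members moved in both directions. Proanthocyanidins, the tannins of the seed coat, are made from dihydroflavonols through dihydroflavonol reductase (DFR), anthocyanidin synthase (ANS) and anthocyanidin reductase (ANR), while isoflavone synthase (IFS) leads to the isoflavones of the embryo. Of 23 described members 7 fell, 3 rose and 13 were not called, with a median log2 change of -0.36, and the 3 that rose were all described as isoflavone synthase 2. In a list of 70 flavonoid and phenylpropanoid gene symbols, 6 fell and 2 rose with a median of -0.03. No test of a difference between branches was made.

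On the proanthocyanidin side ANR1 read 81.43, 74.38 and 345.1 at stage 3 and 37.21, 28.69 and 44.42 at stage 4 (-1.82, SE 0.33, adjusted p = 0.0085). ANS2 read 865.6, 741.8 and 1882 at stage 3 and 419.6, 388.4 and 492.8 at stage 4 (-1.3, SE 0.218, adjusted p = 0.0055). In both the stage 3 array of replicate 3 was the highest by far, the stages did not overlap, and most of the decline over seed fill came before. From stage 2 to stage 3 ANR1 changed by -3.81 and ANS2 by -2.37. Without that array the last step was -1.3 for ANR1 (adjusted p = 0.079) and -1 for ANS2 (adjusted p = 0.057), so neither passed. DFR1 fell by 0.63 on the log2 scale (adjusted p = 0.025, and 0.14 without that array), whereas DFR2 (-1.39, adjusted p = 0.069) and LAR1, a leucoanthocyanidin reductase (-1.04, adjusted p = 0.074), were not called.

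Upstream, flavanone 3-hydroxylase (F3H), which makes the dihydroflavonols, kept a call on 1 of 2 probesets without that array. F3H read 2216, 1790 and 2744 at stage 3 and 1012, 1067 and 1623 at stage 4 on one probeset (-0.88, SE 0.132, adjusted p = 0.0032), and the value without the replicate 3 array was the same at -0.88 (adjusted p = 0.03). Its second probeset fell by 0.84 on the log2 scale and was just outside the threshold without that array (adjusted p = 0.059). Flavonoid 3'-hydroxylase (-1.13, adjusted p = 0.015) fell only with that array included (adjusted p = 0.13 without it).

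Probesets with isoflavone in their names moved both ways. IFS2 read 2044, 1814 and 1293 at stage 3 and 3345, 2664 and 2412 at stage 4 (0.72, SE 0.14, adjusted p = 0.013). Among the other isoflavone synthase probesets 2 rose (0.63 and 0.65, adjusted p = 0.0083 and 0.045) and 1 was not called at nearly the same change (0.66, adjusted p = 0.077), as was IFS1 (0.45, adjusted p = 0.074). PAL2.1, a phenylalanine ammonia-lyase at the entry of the pathway, read 745.1, 1046 and 607.5 at stage 3 and 1700, 1512 and 1370 at stage 4 (0.97, SE 0.235, adjusted p = 0.047). In the 4 called probesets the stage 3 array of replicate 3 was the lowest and every stage 4 array lay above every stage 3 array. Without it none of them was called (IFS2 0.6, adjusted p = 0.12, and PAL2.1 0.79, adjusted p = 0.23). The isoflavone synthase probesets can bind transcripts of the near-identical IFS genes, so which gene the signal came from is uncertain. In the other direction, an isoflavone reductase homolog (Glyma11g07490) read 1393, 1190 and 2807 at stage 3 and 353.5, 394.2 and 649.5 at stage 4 (-1.9, SE 0.201, adjusted p = 0.00023). It kept its call without that array (-1.71, adjusted p = 0.0045). IFR1, an isoflavone reductase symbol, fell by 0.72 on the log2 scale (adjusted p = 0.04, and 0.13 without that array) and was chosen after its values were seen.

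The 6 seed coat markers were ANS2, ANR1, DFR1, DFR2, SCB1 and Ep, of which the first 4 are flavonoid genes already given. The 3 that fell, ANS2, ANR1 and DFR1, are among those 4, so the marker list adds no separate count to the flavonoid one. None of the 6 rose, the median log2 change was -1.08 and none was at 0. Their summed signal was 21500, 16860 and 21270 at stage 3 and 9704, 9677 and 15240 at stage 4, without overlap. SCB1, a BURP domain protein of the seed coat and the brightest of them, read 18670, 14000 and 16470 at stage 3 and 7439, 7554 and 12780 at stage 4 (-0.86, SE 0.226, adjusted p = 0.066). Ep, the seed coat peroxidase, had the opposite sign (0.44, adjusted p = 0.22), so neither of the 2 markers outside the flavonoid pathway was called. The share of seed coat in the samples, and its part in the decreases above, was not tested.

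Of 25 markers of cotyledon storage cells none was called, the median was 0.23, and the summed signal was 348700, 367600 and 254000 at stage 3 and 376900, 429400 and 348800 at stage 4. The sums overlapped between the stages, and the stage 3 array of replicate 3 was the lowest.

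Lipoxygenases, which oxygenate polyunsaturated fatty acids, fell in part. Of 21 described members 6 fell and none rose, with a median of -0.67. The brightest probesets, those of LOX1.1, LOX2 and LOX3, were not called, and the 6 that fell were far dimmer. LOX1.1, described as seed lipoxygenase-1, read 23420, 26500 and 16460 at stage 3 and 24760, 29680 and 22280 at stage 4 (0.23, adjusted p = 0.81). LOX2 changed by 0.2 and LOX3 by 0.22 and 0.25. LOX9 read 1445, 966.8 and 2256 at stage 3 and 900.3, 643.5 and 1017 at stage 4 (-0.81, SE 0.134, adjusted p = 0.0055), with ranges that overlapped although it was lower in 3 of 3 pools. A second probeset of LOX9 (-0.94) and 3 of LOX7 (-1.64, -1.36 and -0.83) fell as well. Without the stage 3 array of replicate 3 the adjusted p of these 5 probesets lay between 0.06 and 0.21.

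Secreted and vacuolar proteins outside the wall list showed decreases too. Of 23 probesets matched by descriptions of proteases and processing proteins, inhibitors of proteases included, 4 fell and none rose (median -0.33). The aspartyl protease LOC100809988 read 1052, 982.3 and 1727 at stage 3 and 268.1, 142.4 and 472.4 at stage 4 (-2.21, SE 0.288, adjusted p = 0.00098). It stayed called without the replicate 3 array (-2.12, adjusted p = 0.015), as did a subtilisin inhibitor (LOC100305872, -2.02 with all arrays) and a cystatin (LOC100801232, -1.88). A serine carboxypeptidase (LOC100804815, -1.77) did not (adjusted p = 0.2). Of 34 members of the protease inhibitor list 7 fell and 1 rose (median -0.14). The one that rose is PRP2, and the cystatin named above is among those that fell, so it is counted in both lists. Some others that fell are lipid transfer proteins, whose descriptions share that list's wording. A trypsin inhibitor p20 (Glyma08g45590) fell by 1.84 on the log2 scale (adjusted p = 0.0042, and 0.055 without that array). The Kunitz inhibitor KTI3, one of the major inhibitors of the seed, changed by 0.19 (adjusted p = 0.68).

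Among 63 glutathione S-transferases and peroxidases 5 fell and none rose (median -0.08), where 1.14% of all probesets were called lower and 0.151% higher. By symbol, 1 of 42 glutathione S-transferase probesets fell, and none of 28 peroxidase and ascorbate probesets was called. The peroxidase of Glyma18g06210 read 169.7, 55.03 and 359 at stage 3 and 13.95, 19.09 and 11.52 at stage 4 (-3.37, SE 0.546, adjusted p = 0.0048), without overlap but with a wide stage 3. The germin-like GER10 fell on both probesets (-2.03 and -1.48). None of these 3 probesets was called without the stage 3 array of replicate 3 (adjusted p = 0.057, 0.053 and 0.076).

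Photosynthesis transcripts were mostly lower, most of them by less than 1.5-fold. Of 31 described members 27 changed by less than 0 and 23 of them reached an unadjusted p below 0.05. Without the pool term none of the 31 was called, and 188 of all probesets were called lower. With it 2 were called (median -0.41), and 1.14% of all probesets were called lower. Others passed the adjusted p but not the fold, such as LHCA1 (-0.49, adjusted p = 0.01) and PORA (-0.54, adjusted p = 0.013). LoPro called 4 of the list lower. PsbO of the oxygen-evolving complex (LOC100792252) read 2074, 1180 and 1157 at stage 3 and 1001, 620.4 and 842.5 at stage 4 (-0.81, SE 0.145, adjusted p = 0.0081). It was still called without the replicate 3 array (-0.95, adjusted p = 0.021). LHCB3, a light-harvesting protein (-0.66), and 2 Calvin cycle enzymes chosen after their values were seen, GAPB on 2 probesets (-0.74 and -0.7) and SBPase (-0.68), fell with all arrays but not without it. The 36 green tissue markers share members with this list, so they add no separate count. They had a median of -0.27 with 1 called, which is LHCB3 again. Their summed signal went from 145500, 140700 and 125300 to 112500, 117000 and 118600, without overlap. The share of green tissue in the samples was not tested.

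Nitrogen metabolism gave 1 call in each direction among 12 described members. GS-2, the glutamine synthetase of chloroplasts, read 493.7, 376.3 and 454 at stage 3 and 213.3, 161.5 and 233.6 at stage 4 (-1.13, SE 0.128, adjusted p = 0.00039). It had the same change without the replicate 3 array (-1.13, adjusted p = 0.0045). An asparaginase (Glyma06g04590), which releases ammonium from the asparagine delivered to the seed, read 1025, 951.8 and 458.4 at stage 3 and 1691, 1406 and 1225 at stage 4 (0.9, SE 0.201, adjusted p = 0.029, and 0.66 with an adjusted p of 0.2 without that array).

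Transporter calls included aquaporins. Of 100 described transporters 4 fell and 1 rose (median 0.12), and of 27 aquaporin symbols 2 fell. Over all probesets 1.14% were called lower and 0.151% higher. PIP1-6, a plasma membrane aquaporin, read 3522, 3273 and 4295 at stage 3 and 1730, 1932 and 1996 at stage 4 (-0.96, SE 0.164, adjusted p = 0.0058), and PIP1-4 (-0.75) and a delta-type tonoplast aquaporin (LOC100805635, -1.41) also fell. A nodulin MtN3 family member (Glyma08g08200), of the family that holds the SWEET sugar exporters, read 743.6, 684.6 and 1128 at stage 3 and 174.2, 296.7 and 482.6 at stage 4 (-1.51, SE 0.288, adjusted p = 0.012); it was chosen after its values were seen. Of these 4, the tonoplast aquaporin alone overlapped between the stages, and none was called without the stage 3 array of replicate 3 (adjusted p between 0.06 and 0.2). The transporter that rose, LOC100798192, resembles the zinc-induced facilitator ZIFL1 and read 489.2, 501.8 and 343.2 at stage 3 and 1382, 771.1 and 1156 at stage 4 (1.29, SE 0.265, adjusted p = 0.019, and 0.15 without that array).

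Cell division genes had largely declined earlier. Of 29 described members 2 fell at the last step (median -0.56), against 18 from stage 2 to stage 3 (median -1.02), where 3% of all probesets were called lower and 2.27% higher. The 2 steps share the stage 3 arrays. The mitotic cyclin S13-6 read 162.4, 188.9 and 296.3 at stage 3 and 68.99, 82.86 and 142.7 at stage 4 (-1.16, SE 0.257, adjusted p = 0.029). A second probeset of the same gene model (Glyma03g27910) overlapped between the stages and was not called (-0.39, adjusted p = 0.31). The other call was a D3 cyclin (LOC547740), which changed by -0.95 (adjusted p = 0.0095). Neither of these calls was kept without the replicate 3 array (adjusted p = 0.14 and 0.095).

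The transcription factors that were called all fell. Of 321 with a matching description or symbol 9 fell and none rose. That share of decreases is above the 1.14% of all probesets called lower, and 88.2% of the 485 calls on the whole array were lower. The median change of the 321 was 0.1 with 184 above 0. MYB11, similar to the Arabidopsis epidermal regulator MIXTA/MYB16, read 91.16, 48.91 and 111.6 at stage 3 and 16.21, 14.87 and 8.774 at stage 4 (-2.63, SE 0.438, adjusted p = 0.0055). All 6 signals of MYB11 lay below the median signal of the arrays. A ZF-HD homeobox protein (-1.73), a homeodomain-related protein (Glyma05g02550, -2.68), MYB179 (-1.55), MYB79 (-1.33) and MYB64 (-0.85) fell too. None of the 9 was called in LoPro. Outside the list, and chosen after their values were seen, NAC6 (-1.01) and an SPL8-like factor (-1.29) fell, both of which LoPro called lower as well. Of these 8 factors, MYB11 included, none was called without the stage 3 array of replicate 3 (adjusted p from 0.057 to 0.24). Among 102 MYB symbols 4 fell and none rose, and among 91 bZIP and 103 WRKY symbols none was called.

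Fewer named genes rose, and they fell into small groups. Ferritin, which stores iron in plastids, rose on 3 of 4 described probesets, all of SFERH-2, with a median log2 change of 1.75. The brightest called one read 1941, 1738 and 437.8 at stage 3 and 4886, 3062 and 2357 at stage 4 (1.53, SE 0.368, adjusted p = 0.045). The array of replicate 3 was the lowest at both stages, and all stage 4 arrays lay above all stage 3 arrays. The other two called probesets changed by 2.05 and 1.98, and the fourth by 1.27 (adjusted p = 0.088). Without that array the 4 changes lay between 0.7 and 1.37, with adjusted p from 0.22 to 0.4. All 4 carry the symbol SFERH-2, but the study assigned those at 2.05 and 1.98 to Glyma03g06420 and those at 1.53 and 1.27 to Glyma01g31300. Which gene each signal came from is therefore uncertain. Of other ferritin genes, SFERH-3 (-1.03, -0.52 and -0.28) and SFERH-4 (0.12) were not called.

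Genes for sieve element occlusion proteins, the P-proteins that plug phloem sieve tubes in legumes, included 3 that rose and were chosen after their values were seen. SEOC read 41.17, 41.09 and 13.29 at stage 3 and 160, 90.6 and 74.81 at stage 4 (1.86, SE 0.344, adjusted p = 0.0093). SEOA read 46.3, 83.34 and 73 at stage 3 and 147, 137.3 and 172.8 at stage 4 (1.21, SE 0.253, adjusted p = 0.02), and SEOF changed by 0.89 (adjusted p = 0.019). The stages did not overlap in any of these 3, and all 3 were dim, with signals near or below the median of the arrays. SEOA and SEOF had changed by -0.98 and -0.74 from stage 2 to stage 3, and the stage 4 signals of SEOA were close to its stage 1 signals of 161.6, 164.5 and 163.2. Without the stage 3 array of replicate 3 the changes were 1.74, 1.18 and 0.92 (adjusted p = 0.08, 0.11 and 0.084). Of the other probesets of SEO symbols, 2 of SEO-F3 (0.26 and 0.44), 2 of SEOE (-0.14 and -0.03), a second one of SEOA (-0.08), SEOM (0.53), SEOS (-0.59) and SEOP (1.77) were not called.

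Among probesets with a description and a stage 4 mean of at least the median signal, the largest increase was that of Pv42p, a protein with CBS domains. It read 257.9, 866.2 and 114.5 at stage 3 and 2890, 2501 and 1740 at stage 4 (2.98, SE 0.531, adjusted p = 0.008). The gap between the stages was wide although the stage 3 arrays differed among themselves, and without replicate 3 at stage 3 the change was 2.43 (adjusted p = 0.084). A cytochrome P450 of the 78A4 type read 81.17, 123.9 and 26.72 at stage 3 and 359, 262.2 and 251.8 at stage 4 (2.15, SE 0.421, adjusted p = 0.014). WIN, a hevein-like defence protein, read 324.3, 418.8 and 286.4 at stage 3 and 1036, 694.6 and 785.5 at stage 4 (1.29, SE 0.246, adjusted p = 0.012). Both were free of overlap, with adjusted p of 0.12 and 0.1 without that array. LOC100800239, described as specific tissue protein 1, read 128.2, 131.4 and 139.9 at stage 3 and 265.6, 300.1 and 364.7 at stage 4 (1.21, SE 0.266, adjusted p = 0.027). Its stage 3 arrays were close together, and it was the one named increase that LoPro called too (1.41, adjusted p = 0.026); in HiPro it had an adjusted p of 0.13 without the replicate 3 array. The probesets with the 2 largest increases of all, 4.38 for LOC100815887 and 3.74 for one with no name, had signals of at most 19.58 on any of the 6 arrays, far below the median.

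**Figure D4:**
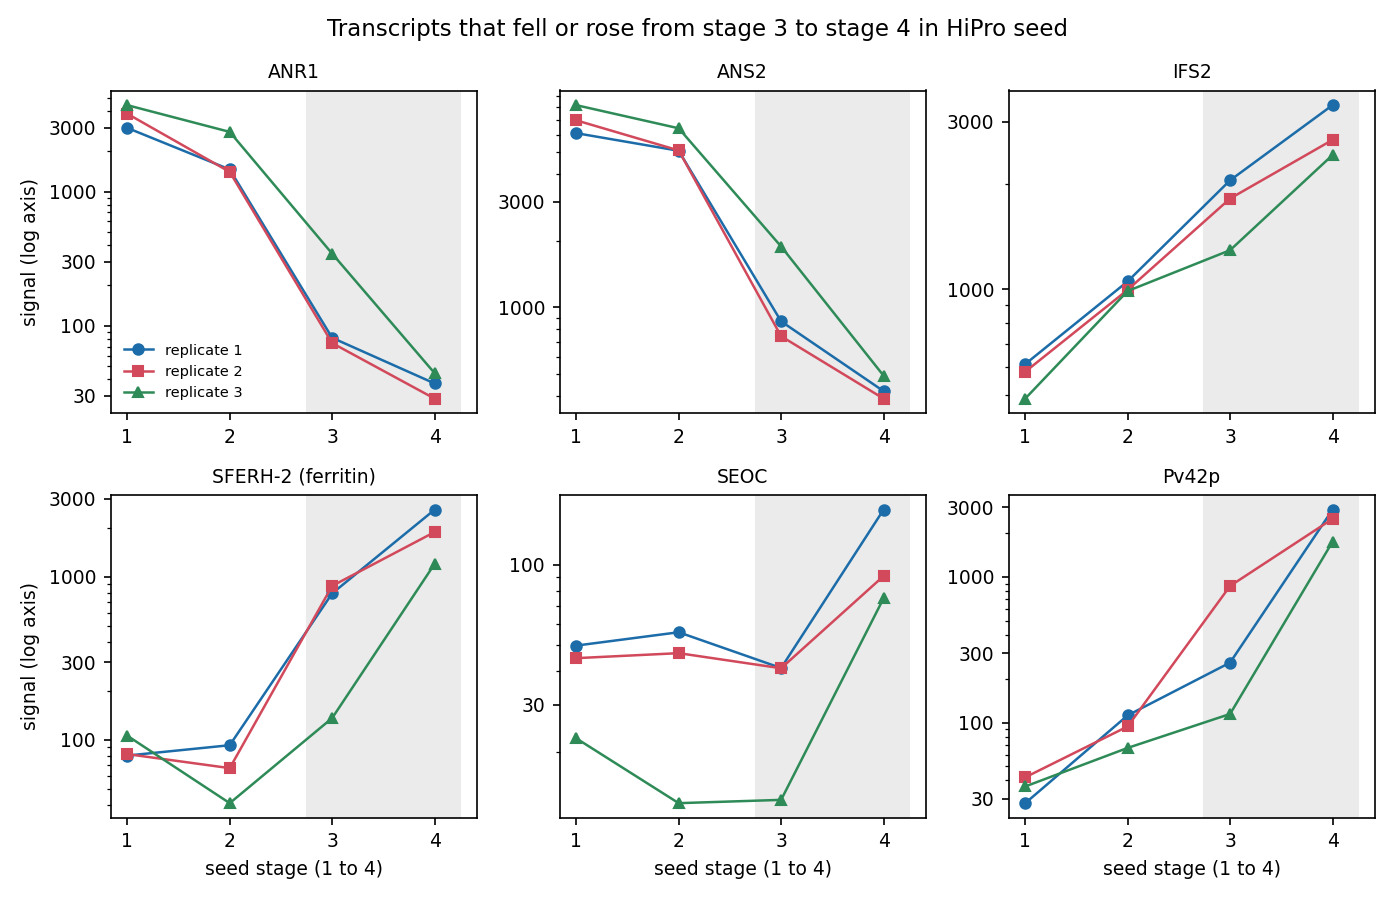
Signal (log axis) of ANR1, ANS2, IFS2, SFERH-2, SEOC and Pv42p in HiPro seed at stages 1 to 4, one line per replicate pool; the grey band marks stages 3 and 4. ANR1 and ANS2 drop mainly before the band, IFS2 climbs at every stage, and SEOC rises within the band to between 74.81 and 160; replicate 3 at stage 3 lies nearest stage 2 in ANR1, ANS2, SFERH-2 and Pv42p.

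No seed storage protein was called, and the main ones were near the top of the signal range. The 324 probesets with a mean signal of at least 10000 over the 6 arrays, whose highest signal was 34500, included none that was called (log2 changes from -0.86 to 2.05, median 0.12). How far such bright probesets can still register a rise was not tested. Of 25 described storage members all 25 changed by more than 0, with a median of 0.2. A list of 25 probesets by storage protein symbol, which shares members with it, had a median of 0.14, with 18 above 0 and 7 below, and 5 lower and 1 higher at an unadjusted p below 0.05. The 7 below 0 were all of VSPA, a vegetative storage protein better known from leaves, and the lowest read 455.3, 154.9 and 307.3 at stage 3 and 98.96, 138.1 and 107 at stage 4 (-1.3, adjusted p = 0.058). Glycinin GY1 read 17160, 18420 and 12850 at stage 3 and 17760, 20800 and 16960 at stage 4 (0.21, SE 0.166, adjusted p = 0.62). The beta-conglycinin gene CG-BETA-1 read 21180, 22600 and 15730 at stage 3 and 21830, 26260 and 19700 at stage 4 (0.2, SE 0.689, adjusted p = 0.94). The stages overlapped in both, and the stage 3 array of replicate 3 was the lowest. GY2 (0.13 and 0.17), GY3 (0.45) and GY5 (0.12) were similar, and the inhibitor KTI-3 changed by -0.2 and -0.17. From stage 2 to stage 3 CG-BETA-1 had changed by 3.11 (adjusted p = 0.01) and 9 of the 25 had been called higher. The largest change of the list at the last step was that of BG7S-2, a basic 7S globulin, with 300.4, 520.1 and 164.4 at stage 3 and 1618, 1125 and 1171 at stage 4 (2.13, SE 0.534, adjusted p = 0.054), just outside the threshold.

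Oil body and LEA proteins showed positive changes that did not pass. None of 9 oil body probesets was called, with changes from 0.12 to 0.8 and a median of 0.34. None of 37 described LEA and maturation proteins was called either (median 0.47), although 32 changed by more than 0 and 19 reached an unadjusted p below 0.05. SLE2, an LEA protein, read 521.5, 582.1 and 117.8 at stage 3 and 3490, 1140 and 2058 at stage 4 (2.61, SE 0.719, adjusted p = 0.078). PM31, a seed maturation protein, read 4851, 9955 and 1598 at stage 3 and 20030, 17960 and 15390 at stage 4 (2.06, SE 0.72, adjusted p = 0.18). In both the stages did not overlap, and the spread among the stage 3 arrays was wide. A fit on the 6 arrays of HiPro stages 3 and 4 alone called 13 of the 37, and one on the 12 HiPro arrays called 7. Over all 37657 probesets these fits called 635 and 541, of which 173 and 85 were higher. Whether LEA proteins passed thus depended on the arrays in the fit.

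Lists with no call in either direction included heat shock proteins and chaperones (36 members, median -0.24), ribosomal proteins (24, -0.17), the ubiquitin system (47, 0.31), sucrose and starch metabolism (9, 0.21), fatty acid and oil synthesis (5, 0.3), abscisic acid signalling (8, 0.17), tubulins and actins (9, 0.26) and auxin, gibberellin and ethylene (22, 0.19). In the ubiquitin list 44 of 47 changed by more than 0, and in the ribosomal list 17 of 24 by less than 0. Calling none does not show that these genes stayed level. The single described member of raffinose metabolism, an alpha galactosidase, changed by -0.89 (adjusted p = 0.21).

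LoPro went through the same step with fewer calls. LoPro called 29 probesets higher (0.077%) and 111 lower (0.295%) at stage 4. Of the 428 HiPro decreases 82 (19.2%) were also LoPro decreases, which is 73.9% of the 111, and of the 57 increases 3 (5.26%) were also LoPro increases, which is 10.3% of the 29. In LoPro 395 of the 428 changed by less than 0 (92.3%, against 48.6% of all probesets) and 55 of the 57 by more than 0 (96.5%, against 51.4%). The LoPro medians over these sets were -0.68 and 0.57, beside -1.13 and 0.99 in HiPro, where the sets were chosen.

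Whether the step differed between HiPro and LoPro was tested directly. No probeset was called for it by limma, the smallest adjusted p was 0.12, and 1804 probesets (4.79%) reached an unadjusted p below 0.05, of which 128 were among the 485. The 485 were chosen for their HiPro step, which is part of this difference, so small p-values among them are favoured. The same choice lies behind the single genes named below. Under 4 alternatives between 1 and 5 probesets passed. For PRP1 the step was -2.48 in HiPro and -1.07 in LoPro (adjusted p = 0.078), for MYB11 -2.63 and -0.24, and for ANR1 -1.82 and -0.51, and the adjusted p of each difference was above the threshold. One HiPro decrease was called in the opposite direction in LoPro. It has no name, read at most 65.72 on any HiPro array of the 2 stages, and changed by -2.44 in HiPro and 2.35 in LoPro (adjusted p = 0.019 and 0.048).

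**Figure D5:**
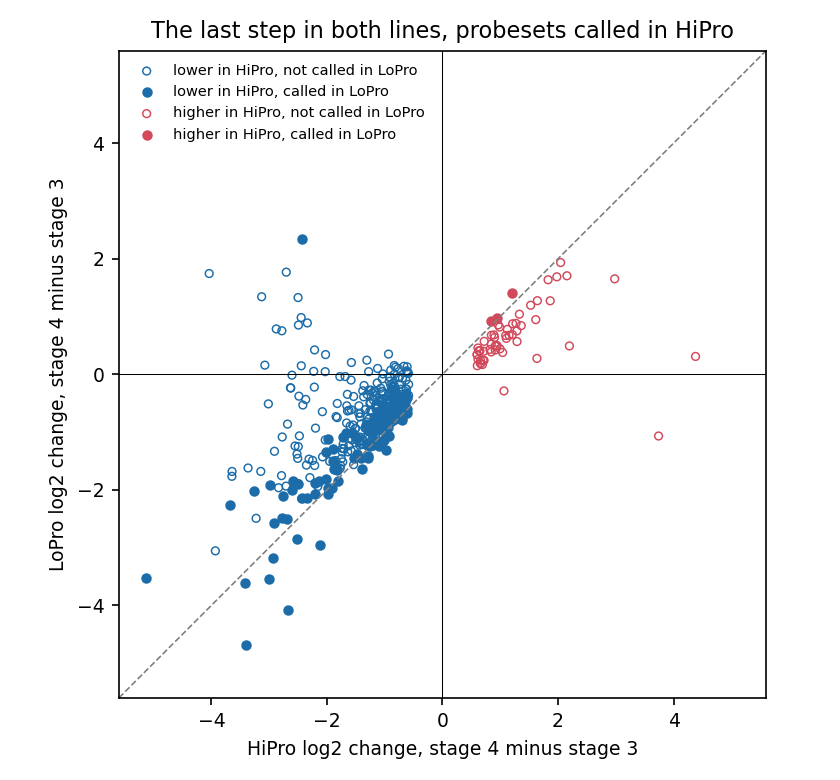
Log2 change from stage 3 to stage 4 in HiPro (horizontal axis) and in LoPro (vertical axis) for the 485 probesets called in HiPro; the dashed line marks equal changes. Filled points were called in LoPro too. Most points have the same sign in both lines, 395 of 428 decreases and 55 of 57 increases, and the decreases above the horizontal line by more than 1 are dim probesets without a description.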

How the data were processed

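Total RNA of seed was hybridised to 24 Soy GeneChips, one for each of 2 lines, 4 stages and 3 replicate pools. The deposited table holds intensity values, which the authors made with MAS5 (named by the labels, version not given in the sources used here) and scaled per array; they are linear, so log2 was taken here with no pseudocount. The methods describe RMA values, which were not used here, and neither were detection calls. Arrays have no depth, and their number limits how precise a value is. Replicates correlated across probesets at r of 0.946 to 0.954 (stage 3) and 0.943 to 0.95 (stage 4).

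The log2 signals were fitted with limma 3.58.1 in R 4.3.3 (eBayes with trend) to 6 plant pools and 3 stage steps per line, leaving 12 residual degrees of freedom. The pools pair the stages, as the methods have all 4 picked from 1 set of plants; deviations from the group means correlated at 0.19, 0.08 and 0.11 within HiPro pools and at -0.14 to 0.04 between them. The 3′ minus 5′ log2 signal changed by 0.212 for actin, -0.913 for ubiquitin, -0.477 for SucBP, -0.169 for GlutTrans and -0.025 for P450, as the array design names these controls; no adjustment was made. The procedure was tested on simulated data with 200 changed probesets.

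Names came from the platform annotation, checked against the RefSeq genes of Glycine_max_v4.0 (8677 probesets with 1 symbol, 370 with several, 28716 with none), and from text in additional files of the study (1653 probesets), of which only part could be read. Coordinates and sequences are not used here. The comparison, the gene lists and the tests were chosen with earlier results of these data known. By rule, named probesets were the 10 largest named calls in each direction that had no overlap, one sign in all pairs and a mean in the higher group of at least the median signal, up to 4 called members per list, every member of lists with at most 6, calls for the difference between the lines, and major storage proteins. Any further one was picked with its values in view, and the lists of gene symbols were written after the files had been opened.

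Alternatives were no replicate block, HiPro arrays alone, quantile normalization, median centring, a floor, a filter on low signals, no trend, the methods' t-test, no fold threshold and leaving out arrays.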

Additional observations from a re-analysis of the deposited data

Results flagged for a closer look

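In 4 named probesets, none of them called, all 3 HiPro pools moved one way from stage 3 to stage 4 and all 3 LoPro pools the other way. The log2 change of the ferritin SFERH-4 was 0.12 in HiPro and -0.16 in LoPro. The Kunitz trypsin inhibitor KTI3 changed by 0.19 in HiPro, where it read 22820, 23460 and 17040 and then 24510, 26960 and 20530, and by -0.23 in LoPro. One of the CG-BETA-1 probesets, for the beta chain of beta-conglycinin, changed by 0.20 in HiPro and -0.25 in LoPro, while the other changed by 0.57 and 0.24. The dim SEOM, a sieve element occlusion gene, changed by 0.53 in HiPro and -1.52 in LoPro, where 1 stage 4 array read 2.911 against 33.06 and 38.2 on the others. The limma test of the difference between the lines gave an adjusted p of 0.99 for each of the 4. These 4 were picked from the named probesets by their signs, and the direction of each within a line was not past the threshold.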

How the results depend on the processing

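No called probeset changed sign under any alternative run. As each had moved one way in every HiPro pool, this is no separate support. With no replicate block 193 were called (5 higher, 188 lower), without the trend 237 (23 and 214) and with no fold threshold 598, of which 107 were higher. On the 6 HiPro arrays of stages 3 and 4 alone, with the replicate block, 173 were called higher. With the methods' t-test after Benjamini-Hochberg 0 were called (0 higher, 0 lower), although 2642 had an unadjusted p below 0.05, and at that threshold with the fold 1172 were called (419 and 753). Quantile normalization, median centring, the floor at a signal of 14.6, the 12 HiPro arrays and the filter that left out 11297 dim probesets gave totals from 354 to 541, within 1.5 times of 485. Leaving out 1 replicate means its HiPro arrays of stages 3 and 4, while those of stages 1 and 2 stayed in the fit. Leaving out 1 replicate or 1 array gave 97 to 456 calls, 6 to 70 higher and 85 to 386 lower. The total without replicate 1 was 191 and without replicate 2 it was 317; without the stage 4 arrays of replicates 1, 2 and 3 it was 210, 314 and 269, and without the stage 3 array of replicate 1 it was 308. Increases made up 11.8% of the calls, 2.59% with no replicate block and 27.2% on the 6 arrays. For the difference between the lines, 1 probeset was called with no replicate block (adjusted p = 0.018) and the same 1 with the floor (0.0035), which is the dim one called in opposite directions in the lines. The count was 1 without replicate 1 (0.033), 0 without replicate 2 (smallest 0.052) and 5 without replicate 3 (0.017), against 0 with all arrays. The causes were not tested.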
